A study of Mus musculus with 14 samples.

Results

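The Ikaros family of zinc finger transcription factors comprises 5 genes in the mouse: Ikzf1 (Ikaros), Ikzf2 (Helios), Ikzf3 (Aiolos), Ikzf4 (Eos) and Ikzf5 (Pegasus). They were chosen by gene name, as the rows of a merged list of open chromatin regions whose nearest gene is one of the 5. This gave 52 of 92842 peaks and 5 of 19105 genes named in the list. The list came from ATAC-seq, which uses a transposase to insert sequencing adapters into accessible DNA, on 7 cell types sorted from wild-type C57BL/6 mice aged 8 to 12 weeks. MPP (multipotent), CMP (common myeloid), CLP (common lymphoid), GMP (granulocyte and macrophage), MEP (megakaryocyte and erythroid) and ProB (B cell) progenitors were taken from bone marrow and ProT (T cell) progenitors from thymus, with 2 libraries each and 14 in all. The cells were isolated with fluorescent antibodies against surface markers, and the animals carried no transgene or treatment that the labels name. The merged list gives 1 position per peak and no value for any library or cell type. It does not say in which of the 7 cell types a peak at an Ikaros family gene was accessible, so no level can be compared between them, the sort cannot be checked against markers, and a number of peaks has no replicate error.

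Ikaros family proteins bind DNA through zinc fingers near their N terminus and pair with each other through another set of fingers at the C terminus. They recruit chromatin remodelling and deacetylase complexes, above all NuRD, and can act as repressors or activators. Ikaros is required for lymphocyte development and is already made in multipotent progenitors. Helios and Eos are best known from T cells, regulatory T cells in particular, Aiolos from maturing B cells, and Pegasus is the most divergent member and is broadly made.

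The promoter sequences of the members in the RefSeq promoter table (build GRCm38.p6, the assembly of mm10) are given first. The table matched 2 of the 5 members, Ikzf1 with 2 starts and Ikzf5 with 1. Each line holds the 250 bases before the start, 5′ to 3′ on the strand of the gene, with every CpG dinucleotide in capitals. The first Ikzf1 window is chr11:11685675-11685924 (plus strand), the second is chr11:11689927-11690176 (plus strand), and the Ikzf5 window is chr7:131410479-131410728 (minus strand).
Ikzf1, start at 11685925: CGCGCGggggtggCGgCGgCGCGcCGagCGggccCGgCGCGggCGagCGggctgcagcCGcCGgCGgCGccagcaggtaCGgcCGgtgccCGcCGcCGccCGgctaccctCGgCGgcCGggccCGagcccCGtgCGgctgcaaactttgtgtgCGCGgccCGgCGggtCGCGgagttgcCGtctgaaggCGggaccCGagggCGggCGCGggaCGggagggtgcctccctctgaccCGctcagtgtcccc
Ikzf1, start at 11690177: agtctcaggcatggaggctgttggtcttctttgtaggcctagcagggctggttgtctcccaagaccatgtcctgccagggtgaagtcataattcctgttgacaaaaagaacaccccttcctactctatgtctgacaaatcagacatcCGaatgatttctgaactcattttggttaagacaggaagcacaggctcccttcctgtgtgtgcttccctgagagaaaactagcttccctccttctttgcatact
Ikzf5, start at 131410478: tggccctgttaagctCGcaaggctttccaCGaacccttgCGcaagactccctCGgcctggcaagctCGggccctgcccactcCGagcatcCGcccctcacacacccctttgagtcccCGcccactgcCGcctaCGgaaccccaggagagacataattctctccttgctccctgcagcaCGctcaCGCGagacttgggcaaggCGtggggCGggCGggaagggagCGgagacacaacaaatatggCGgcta

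The first Ikzf1 window held 44 CpG dinucleotides and 82.0% G and C, with a CpG observed to expected ratio of 1.05 that exceeded 96.4% of the 32841 promoter windows of the table. The second Ikzf1 window, further into the gene, held 1 CpG, 47.6% G and C and a ratio of 0.0712, above only 10.6% of the windows. Ikzf5 lay between them with 18 CpG, 64.0% G and C and a ratio of 0.719, above 74.7% of the windows, against a median ratio of 0.374. All 3 windows were touched by a peak: 70 of the 250 bases of the first Ikzf1 window, 144 of the second and all 250 of Ikzf5 lay under one. Ikzf1 thus had an open region at a CpG-rich and at a CpG-poor start. A search of both strands covered TGGGAA (the Ikaros core), CCGGAA (ETS factors), AGATAA or TGATAA (bound by GATA factors), TGTGGT or TGCGGT (Runx), GGGCGG (Sp and Klf factors), CCAAT (NF-Y) and CAGCTG or CAGGTG (E-boxes). Only GGGCGG was found: 2 matches in the first Ikzf1 window, beginning 155 and 51 bases before the start, and 4 in Ikzf5, beginning 161, 134, 44 and 40 bases before it, the last 2 of which overlap. Over all windows, 32.7% held GGGCGG, while CCAAT was in 33.9%, TGGGAA in 21.6% and CCGGAA in 12.0%. CAGGTG was in 17.2%, TGTGGT in 14.0%, CAGCTG in 13.0%, AGATAA in 9.99%, TGATAA in 7.94% and TGCGGT in 5.10%. The second Ikzf1 window held none of the 10 motifs. The share of all windows that held none is not given here.

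Peak number divided the family. Ikzf2 had 23 peaks and Ikzf1 20, while Ikzf3 had 5, Ikzf4 3 and Ikzf5 1. Both Ikzf1 and Ikzf2 thus reached 20 peaks, as 2.63% of all genes named in the list did. Of those genes, 98.2% had fewer peaks than Ikzf2, 97.4% fewer than Ikzf1, 65.1% fewer than Ikzf3 and 41.5% fewer than Ikzf4. Ikzf5 is among the 4486 genes (23.5%) with the lowest possible number, since a gene enters the list only through a peak. The median over the 19105 genes was 3 and the mean 4.86 ± 5.33 (SD over genes). With no replicate list, the step from 23 to 20 and that from 5 to 3 carry no error and are not shown to be differences.

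**Figure D1:**
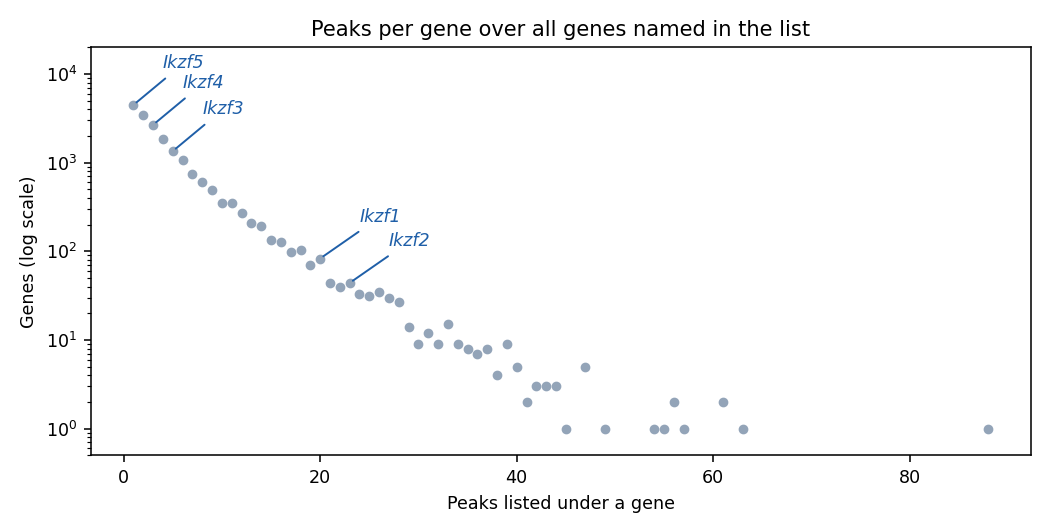
Number of genes (log scale) with each number of listed peaks, over the 19105 genes named in the list; 1 point per peak number. Ikzf1 (20 peaks) and Ikzf2 (23) lie in the upper tail, while Ikzf3 (5), Ikzf4 (3) and Ikzf5 (1) lie among the bulk of genes.

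Ikaros itself, Ikzf1, lies on chromosome 11 (11684962 to 11772930, plus strand, 88.0 kb). Of its 20 peaks, 4 were intergenic and lay upstream, 28.5, 26.9, 18.0 and 6.79 kb before the listed start. A peak of class promoter-TSS followed 928 bp before that start (11684748 to 11685246), and 2 peaks lay in 5′ UTRs, 179 bp after the first start (11685855 to 11686353) and 105 bp after the second (11690033 to 11690531). The other 13 were intronic, 3 in intron 1 and 10 in intron 3 of NM_001301866, a transcript with 5 introns. The intron 3 peaks ran from 21.8 to 52.6 kb downstream of the second start. Among them 2 were only 7 bp apart (11733148 to 11733646 and 11733654 to 11734152), and 4 of the 19 gaps between neighbouring Ikzf1 peaks (21.1%) were under 1 kb, against 11.3% of the gaps between all peaks. The median gap was 2.68 kb at Ikzf1 and 8.26 kb over the whole list. Gaps over the whole list also run between genes, while those at Ikzf1 join only peaks of that name, so the measures are unlike. In all, 1 of the 20 peaks lay in a repeat, a B4A SINE in intron 1.

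Helios, Ikzf2, lies on chromosome 1 (69531207 to 69687351, minus strand, 156 kb) and had a wider layout. Its 23 peaks were 11 in introns and 12 intergenic, with a median gap of 10.5 kb. Intron 3 of NM_011770 held 9, and introns 5 and 6 held 1 each. Upstream lay 6 peaks, 1.48, 3.12, 6.42, 44.1, 60.9 and 67.0 kb before the listed start. A further 6 lay beyond the end of the gene, 2.32 to 77.1 kb past it, the farthest being 232 kb from the start. In all, 8 of the 23 (34.8%) were over 100 kb downstream of the start, a position held by 7.64% of all peaks. No Ikzf1 peak could be listed there, since the start of the neighbouring gene Fignl1 is nearer to such positions. The nearest coding genes on either side of Ikzf2 are Spag16 at 140 kb and Erbb4 at 423 kb. Repeats held 4 of the 23 peaks (17.4%, exact Clopper-Pearson 95% interval 4.95 to 38.8): the LTR elements MTEa and MLT1A, a simple repeat and a G-rich stretch. Over all peaks the repeat share was 16.0%.

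**Figure D2:**
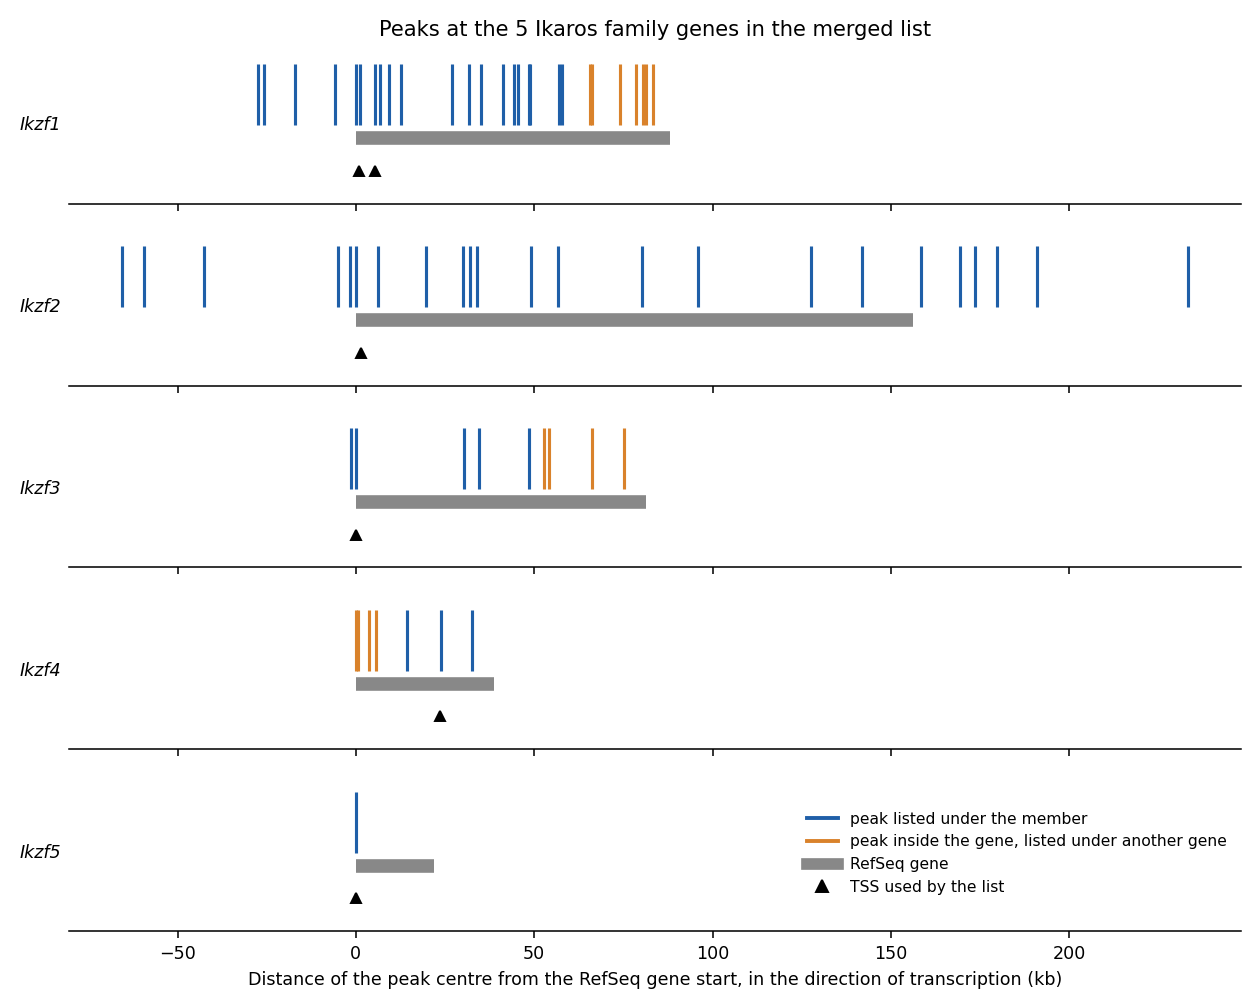
Position of each peak centre (vertical lines, kb from the RefSeq gene start in the direction of transcription) at the 5 genes, with the gene as a grey bar and the starts used by the list as triangles. Blue peaks are listed under the member; orange peaks lie inside the gene but are listed under Fignl1 (7 peaks, in Ikzf1), Grb7 (4, in Ikzf3) or Suox (4, in Ikzf4).

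Aiolos, Ikzf3, lies on chromosome 11 (98464610 to 98546031, minus strand, 81.4 kb). It had a promoter peak 85 bp downstream of its start (98545697 to 98546195), an intergenic peak 1438 bp upstream (98547220 to 98547718) and 3 peaks in intron 3 of NM_011771, at 30.3, 34.5 and 48.5 kb. Eos, Ikzf4, lies on chromosome 10 (128630839 to 128669671, minus strand, 38.8 kb). It had a peak in exon 1, 261 bp downstream of the listed start (128645483 to 128645981), 1 in intron 5 (128636736 to 128637234) and 1 classed as intergenic, 9.44 kb upstream (128655181 to 128655679). Pegasus, Ikzf5, lies on chromosome 7 (131388649 to 131410518, minus strand, 21.9 kb), and its single peak was centred 5 bp before its start (131410234 to 131410732). None of these 9 peaks lay in a repeat. Acadsb, a mitochondrial dehydrogenase gene on the other strand, begins 83 bp from the RefSeq start of Ikzf5, under the same peak.

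**Figure D3:**
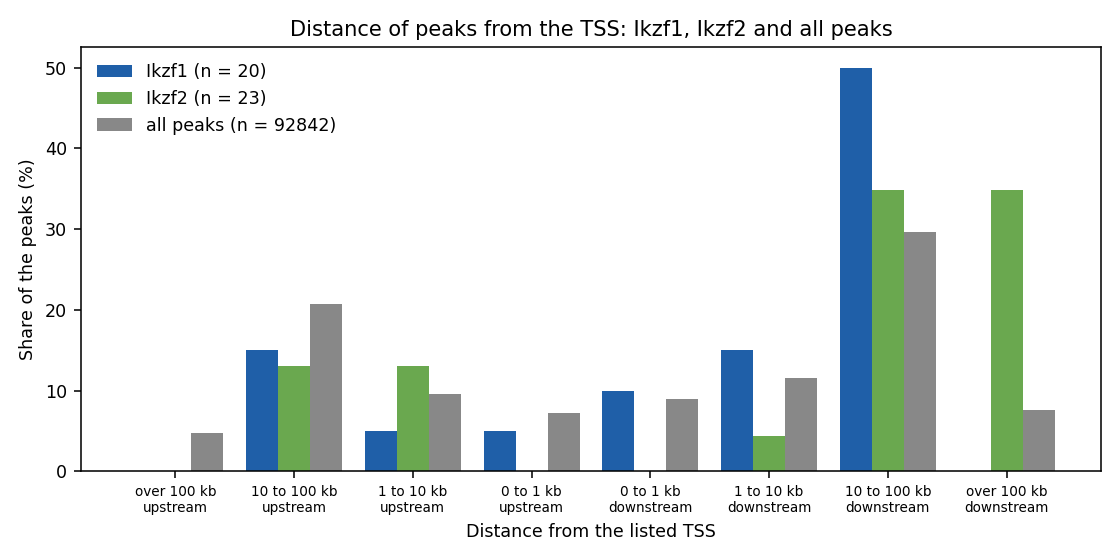
Share of peaks (%) in 8 classes of distance from the listed start, for Ikzf1 (20 peaks), Ikzf2 (23) and all 92842 peaks. The class over 100 kb downstream held 34.8% of the Ikzf2 peaks, none of the Ikzf1 peaks and 7.64% of all peaks. Ikzf1 could hold none there, because the start of Fignl1 is nearer to such positions. The class 10 to 100 kb downstream held 50.0% of the Ikzf1 peaks, 34.8% of the Ikzf2 peaks and 29.6% of all peaks.

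Over the family, 28 of the 52 peaks were intronic (53.8%, exact 95% interval 39.5 to 67.8, counting error only), against 42.0% of all other peaks, whose value lies inside that interval. Within 1 kb of a listed start lay 6 of the 52 (11.5%, 4.35 to 23.4), against 16.2%. Peaks of 1 gene share a locus and are not independent, so neither difference was tested. Intron 3 held more intronic peaks than any other intron inside the 3 longest genes, whatever name they carry: 10 of 20 at Ikzf1, 9 of 11 at Ikzf2 and 5 of 7 at Ikzf3. Over the whole list, 9.90% of intronic peaks lay in an intron 3 and 35.2% in an intron 1. Intron numbers depend on the transcript chosen by the annotation, and intron lengths were not used here, so room in these introns was not taken into account.

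By RefSeq gene bounds, the nearest-start rule listed part of the peaks inside 3 members under another gene. Which gene these peaks act on was not tested. Inside the annotated Ikzf1 gene 23 peaks had their centre, of which 7 (30.4%, 13.2 to 52.9) were listed under Fignl1, an ATPase gene whose start is nearer. All 7 were intronic and lay in the distal part of Ikzf1, 65.6 to 83.3 kb from the RefSeq gene start. At Ikzf3, 4 of 8 were listed under Grb7, an adaptor protein gene. They lay 52.7 to 75.1 kb into Ikzf3, 2 of them in intron 3. At Ikzf4, 4 of 7 were listed under Suox, the sulfite oxidase gene. They lay 0.131 to 5.64 kb from the RefSeq gene start, upstream of the listed Ikzf4 start, and none was classed as intronic. Their classes were termination site of Suox and intergenic, the intergenic ones in ORR1 repeats. Ikzf2 and Ikzf5 had no peak inside under another name. Peaks inside a member made up 7 of the 17 listed for Fignl1, 4 of the 8 for Grb7 and 4 of the 5 for Suox. Listing of peaks inside a gene under another name is common. Of coding genes named in the list with 5 or more peaks inside, 66.5% had at least 1 under another name, compared with 3 of the 4 members of that kind. Over all coding genes named in the list and matched to RefSeq, 24.3% of the peaks inside carried another name. Genes that no peak names are left out of both shares.

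Counted inside the gene, the order of the leading members changed. Ikzf1 then had 23 peaks, Ikzf2 11, Ikzf3 8, Ikzf4 7 and Ikzf5 1. Per length this was 26.1 peaks per 100 kb for Ikzf1, 18.0 for Ikzf4, 9.83 for Ikzf3, 7.04 for Ikzf2 and 4.57 for Ikzf5. The median was 7.01 over 16479 coding genes named in the list, and Ikzf1 was denser than 91.5% of those. Coding genes that no peak names are not among them. Of these named genes at 0.5 to 2 times the length of each member, 99.3% had fewer peaks inside than Ikzf1, 91.8% fewer than Ikzf4, 78.7% fewer than Ikzf3, 73.8% fewer than Ikzf2 and 13.3% fewer than Ikzf5. The Ikzf4 values rest on the RefSeq gene bound, which begins 23.7 kb upstream of its listed start. So the density of Ikzf2 was close to the median of the named coding genes, and 12 of its 23 listed peaks lay outside the gene. The longest stretch without a peak inside the gene was 13.9 kb at Ikzf1 (12.9 to 26.7 kb from the RefSeq gene start), 31.2 kb at Ikzf2 and 29.7 kb at Ikzf3, where it began 0.334 kb from the start.

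**Figure D4:**
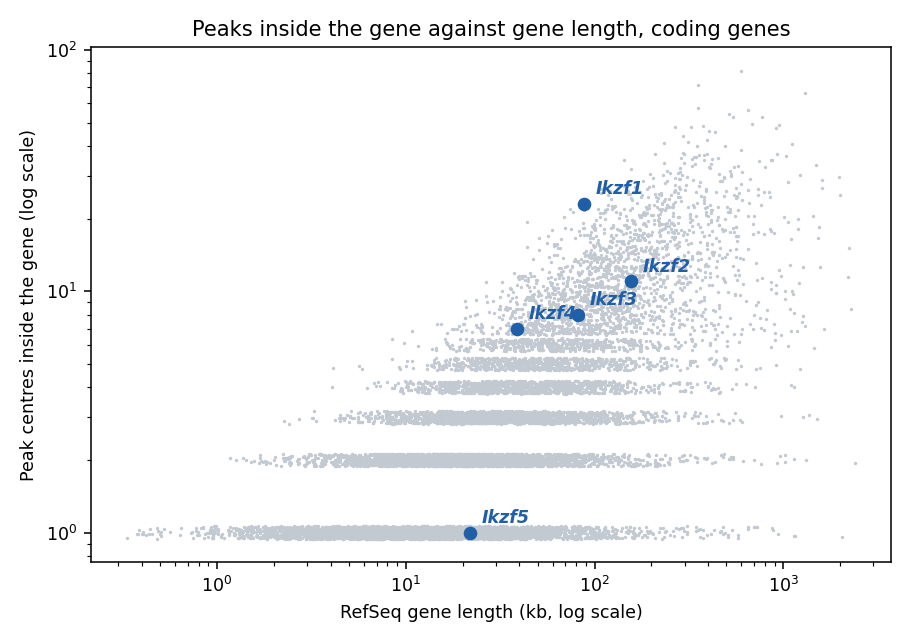
Peak centres inside each coding gene named in the list against its RefSeq length (both axes log scale). Each grey point is 1 such gene with at least 1 peak inside, shifted slightly up or down for visibility. Members are in blue at their exact values. Ikzf1 (88.0 kb, 23 peaks) lies at the upper edge for its length, while Ikzf2 (156 kb, 11 peaks) and Ikzf5 (21.9 kb, 1 peak) lie within the cloud.

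Whether a member had an open start depended on which start was used. By the starts of the list, 4 of the 5 members had a peak within 1 kb, beside 73.7% of the coding genes named in the list. Ikzf2 was the exception, its nearest peak lying 1478 bp upstream. That peak (chromosome 1, 69687189 to 69687687) was centred 87 bp from the RefSeq gene start, which lies 1391 bp upstream of the start in the list. Ikzf4 showed a larger offset: the RefSeq gene begins 23.7 kb upstream of its listed start, and a peak listed under Suox as a termination site (chromosome 10, 128669291 to 128669789) was centred 131 bp from that RefSeq start. The Ikzf1 peak of class promoter-TSS was centred 35 bp from the outermost RefSeq start. By RefSeq gene starts all 5 members had a peak within 1 kb, the farthest being the 131 bp of Ikzf4. Of 19857 RefSeq coding genes of known strand, named in the list or not, 59.3% did. All 5 members are named in the list and so have a peak, which these genes need not, so the comparison is not like for like. RefSeq gene bounds include predicted transcripts. The end of Suox lies at the Ikzf4 start as well, 216 bp outside it, and which gene the peak belongs to was not tested.

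By the layout of peaks over 8 classes of signed distance, the genes most like the 3 members with at least 5 peaks were found by the sum of absolute differences in peak number. Nearest to Ikzf1 was Specc1 (sum 2, 18 peaks). A sum of up to 3 was reached by 6 genes, Elovl6 (17 peaks) and Eps8 (21 peaks) being the first by name of those tied at 3. Nearest to Ikzf2 were Plcb4 (4, 23 peaks), Mgst2 (5, 26 peaks) and Rtkn2 (5, 22 peaks). For Ikzf3, 16 genes had the identical layout, Asah1, Ccdc177 and Ccl25 being the first by name. The measure uses 1 merged list and no cell type.

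Genes that work with the family were then set beside it. Of 18 genes of NuRD and other corepressors, 17 (94.4%, 72.7 to 99.9) had a peak within 1 kb of the listed start, an interval that holds the 73.7% of coding genes named in the list. The median was 4 peaks (range 1 to 27). Above the coding median of 3 were 10 of the 18, against 44.5% of coding genes named in the list. Mbd2, a methyl-CpG binding subunit, had 27 peaks, Mta3, a subunit of cell type restricted NuRD, 16 and Ctbp2, a corepressor, 9. The ATPase genes Chd4 and Chd3 had 4 and 5, and the deacetylase genes Hdac1 and Hdac2 had 2 and 3. Gatad2b, a scaffold subunit, was the 1 gene without such a peak (nearest 1339 bp), but a peak listed under Mir7012 was centred 122 bp from its RefSeq start.

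All 5 genes of the cereblon ubiquitin ligase, through which thalidomide analogues degrade Ikaros and Aiolos in human cells, had a peak within 1 kb (exact 95% interval 47.8 to 100%, which also holds 73.7%). Crbn, the substrate receptor, had 14 peaks, Rbx1, the RING subunit, 9, Cul4a, a scaffold, 5, and Ddb1 and Cul4b 2 each (median 5).

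Of 16 genes described as Ikaros targets in lymphocytes, 11 (68.8%, 41.3 to 89.0) had a peak within 1 kb. This was near the 73.7% of coding genes named in the list. The 16 include Vpreb1, which no peak names, while the 73.7% covers named genes only, so the comparison is not like for like. The median was 4.5 peaks, with the 0 of Vpreb1 included. Above the coding median were 8 of 16, against 44.5% of coding genes named in the list. Il7r, the interleukin 7 receptor chain, had 19 peaks, Ebf1, a founding B cell factor, 18, and Rag2, a recombinase subunit, 15. Dntt, which encodes terminal transferase, had 6, with 1 centred 52 bp after its start, and the surrogate light chain gene Igll1 had 3. The 5 without a peak within 1 kb were Cd4 (nearest 2.81 kb), Notch3 (2.54 kb), Cd8b1 (6.26 kb), Cd8a (19.5 kb) and Vpreb1, which had no peak under its name and the nearest at 1.65 kb under Top3b. For none of these 5 did a peak of any name lie within 1 kb of the RefSeq start.

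**Figure D5:**
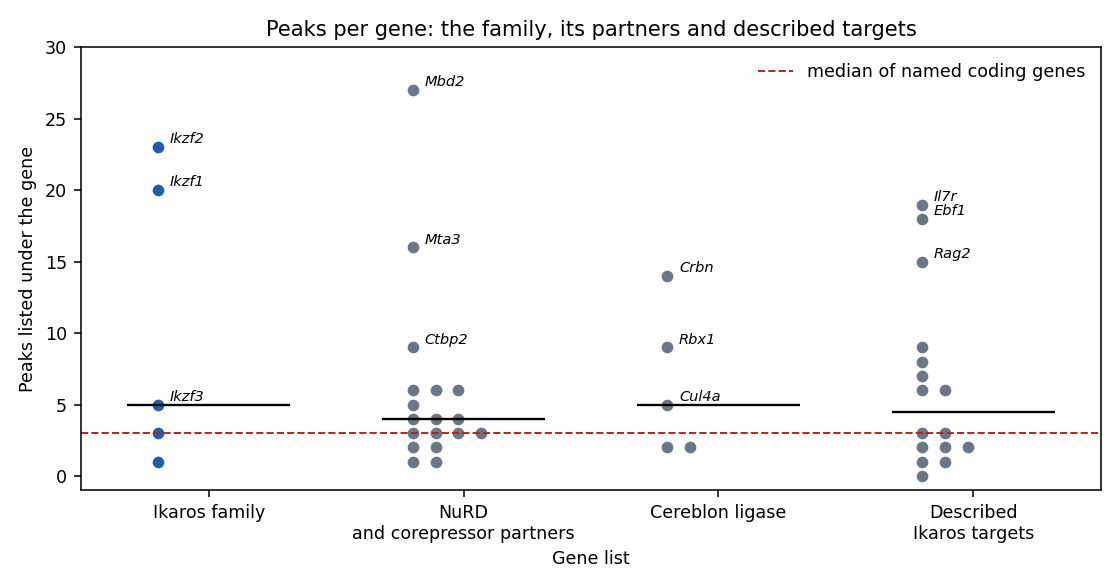
Listed peaks per gene for the 5 members (blue) and 3 lists of partner and target genes (grey; 1 point per gene, black bar the median, dashed line the median of 3 over named coding genes, the 3 highest genes of each list named). Medians were 5, 4, 5 and 4.5 from left to right, and Mbd2 (27) was the only gene of these lists above Ikzf2 (23). The 4.5 includes Vpreb1, which has 0 peaks and so is not among the named genes of the dashed line.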

How the data were processed

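ATAC-seq peaks of 7 sorted mouse cell types (14 libraries) were analysed as 1 merged list. The authors annotated it with annotatePeaks against mm10, per the file headers, with HOMER 4.10.2 per the submitters' processing notes. Not given in the sources used here are aligner, peak caller, threshold and merging, and depth is unknown. The deposited peak score was 0 for each of the 92842 peaks and was not used. Peak identifiers run from 1 to 92842 without gaps, and each peak is 499 bp wide, so the width of open regions is not kept. The deposited list names for each peak the gene of the nearest TSS and the signed distance in bp.

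Peaks were counted per gene name. Gene bounds came from RefSeq (GRCm38.p6), to which 19072 of 19105 named genes (99.8%) were matched by identifier. Strand came from the promoter table or from 2 or more peaks whose distances fit 1 strand. Counting was tested on simulated data with known answers. Python 3.11.15, pandas 2.3.3, numpy 2.4.6 and scipy 1.17.1 were used. Shares have exact (Clopper-Pearson) 95% intervals for counting error only. No test between cell types was possible, and no p-value was computed.

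The members and the partner and target lists were chosen with earlier results of these data known. The members and all their peaks were named, as were the 3 genes of most similar layout for members with at least 5 peaks, adjoining genes, and, of each list, the 3 leading genes by peak number and any gene without a peak within 1 kb. Other list genes (Chd3, Chd4, Hdac1, Hdac2, Cul4b, Ddb1, Dntt, Igll1) were added after their values had been seen, as was the use of RefSeq gene starts. Planned protein comparisons were not made.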

Additional observations from a re-analysis of the deposited data

How the results depend on the processing

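Of 49 alternative values, 29 counted as unchanged (a count within 1.5 times, or a share inside the 95% interval) and 20 moved. No paired analysis was possible because the merged list holds no values per library, and for the same reason no library could be left out. Within 10 kb of the listed start the peaks numbered 7 at Ikzf1, 4 at Ikzf2 and 2 at Ikzf3, and within 100 kb Ikzf2 kept 15. Counted inside the gene they numbered 11 at Ikzf2, 8 at Ikzf3 and 7 at Ikzf4. Among named genes of like length the share with fewer listed peaks was 95.5% for Ikzf1, 94.3% for Ikzf2, 48.9% for Ikzf3 and 35.5% for Ikzf4. With 10 kb added on each side and all names counted, density was 8.52 peaks per 100 kb at Ikzf2, 12.8 at Ikzf3, 18.7 at Ikzf4 and 2.39 at Ikzf5, against 14.7, 6.14, 7.73 and 4.57 for listed peaks over gene length. Within 2 kb of the listed start Ikzf2 had 1 peak and Ikzf3 2. By RefSeq gene starts, an alternative chosen after seeing the data, Ikzf1 and Ikzf2 had 1 peak within 1 kb and Ikzf4 2. By construction these alternatives change which peaks can be counted, the length divided by or the genes compared. Ikzf5 has 1 peak, centred 5 bp before its listed start, so its counts by distance from that start and its percentiles could not move. Intron shares did not leave their intervals with peaks over 1 kb from a start only, and Ikzf5 has no such peak. Those intervals are wide at Ikzf3 (14.7 to 94.7%) and Ikzf4 (0.840 to 90.6%). Ikzf2 has no peak within 1 kb, so its share could not change. Depth is unknown, so a site without a peak may be closed or below detection.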

Other observations

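Members of other gene families recur near the Ikaros family genes, among the 3 closest coding genes on a side, a pattern chosen after the positions had been seen. In the RefSeq gene table an ERBB receptor tyrosine kinase gene is near 3 of the 5 members: Erbb4 adjoins Ikzf2 at 423 kb, Erbb3 lies 41.2 kb from Ikzf4 beyond Rps26, and Erbb2 lies 26.9 kb from Ikzf3 beyond Mien1 and Grb7. Of the zona pellucida binding protein genes, Zpbp2 adjoins Ikzf3 at 5.07 kb and Zpbp lies 221 kb from Ikzf1 with other coding genes between them. The adaptor genes Grb10 and Grb7 lie 158 kb from Ikzf1 and 9.24 kb from Ikzf3, neither adjoining. Their peak numbers differed: Erbb4 had 11 peaks under its name, Erbb3 4 and Erbb2 none, Grb10 9 and Grb7 8, Zpbp 3 and Zpbp2 1. Since 4 of the 8 Grb7 peaks lie inside Ikzf3, the number for Grb7 does not describe Grb7 alone.

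Beyond Ikzf1, Fignl1 and Ddc follow at 27.4 and 41.2 kb, and Fignl1 carried 17 peaks under its name, close to the 20 of Ikzf1, of which 7 lie inside Ikzf1. Whether the peaks between the genes act on either was not tested.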
